A study of Rattus norvegicus with 32 samples.

Results

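The 10 genes described here make the liver's bile acids or sense them. Cyp7a1, Hsd3b7, Cyp8b1, Akr1d1, Cyp27a1 and Cyp7b1 encode enzymes that turn cholesterol into bile acids, Slc27a5 and Baat encode the enzymes that conjugate bile acids, and Nr1h4 and Nr0b2 encode the nuclear receptors FXR and SHP. They were listed by symbol, with earlier results of these data known. All 10 were among the 17327 genes of the count table and among the 11002 genes with enough reads to be tested. The livers came from 32 Sprague Dawley rats in 8 groups of 4. The knockout (KO) rats, in which CRISPR/Cas9 editing had disrupted Serpina6, made up 4 groups and wild-type (WT) rats the other 4. Each genotype was sampled as males and as females, at 60 days and at 30 days of age, without treatment. Serpina6 encodes corticosteroid-binding globulin, the plasma carrier of glucocorticoids that hepatocytes secrete. No source used here gives the number of founder lines or the litters, so p-values measure the spread between these livers. The forms of the sample titles differ between the ages, so age and anything that came with the title form cannot be told apart.

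Bile acids are the main route by which the body disposes of cholesterol. In the classic pathway Cyp7a1 adds a hydroxyl group to the cholesterol ring as the rate-limiting step, Hsd3b7 and Akr1d1 rework the ring, and Cyp8b1 adds the hydroxyl that makes cholic acid. In the alternative pathway Cyp27a1, a mitochondrial enzyme, first oxidises the side chain and Cyp7b1 then acts on the ring. Slc27a5 activates bile acids by joining them to coenzyme A, and Baat transfers them to taurine or glycine. FXR is activated by bile acids, and one of its targets in liver is SHP, a receptor without a DNA-binding domain that is known to repress Cyp7a1 and Cyp8b1. Transcription of Cyp7a1 is known to follow the time of day and feeding in rodents.

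Genes received 12951969 to 21954929 reads in a library, with 16806943 or more in each 30-day library and 17133332 or fewer in each 60-day library. Levels are given as CPM, a gene's reads as a share of its library after trimmed-mean scaling, and are not compared between genes because they are not divided by transcript length. Serpina6 read 25.5 to 131 CPM in KO livers and 421 to 1358 CPM in WT livers, so its level followed the genotype labels in every library. Of 8 hepatocyte markers, all 8 were above 1 CPM in every group. One library stood apart. In replicate 1 of the 60-day KO females 14 of 14 photoreceptor genes had their highest level, and these genes summed to 2182 CPM, against at most 12.4 CPM in any other library. For the 10 genes and the lists around them, counts of calls that use this library are given with and without it, and so are the relations and a number of fold changes.

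Promoter sequence was held for 6 of the 10 genes in RefSeq's table for the assembly GRCr8. The windows of the 4 genes among them that differed between males and females at 60 days are shown, because 7 of the 10 genes were called between the sexes in 60-day WT livers, the most of any comparison. Each window is the 250 bases before the start held in that table, on the gene's own strand, 5′ to 3′, so its last base is position -1. The Cyp27a1 window lies inside that gene's annotated span, chr9:83712402-83743222, so its positions are not upstream of the gene's outermost start. Capitals mark matches to the motifs named after the sequences, on either strand.
Baat, chr5:68656138-68656387, minus strand: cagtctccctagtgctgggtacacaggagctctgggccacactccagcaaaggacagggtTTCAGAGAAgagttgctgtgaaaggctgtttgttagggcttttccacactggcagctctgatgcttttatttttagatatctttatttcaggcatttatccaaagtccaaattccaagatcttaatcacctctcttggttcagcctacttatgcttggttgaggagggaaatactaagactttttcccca
Hsd3b7, chr1:191842438-191842687, plus strand: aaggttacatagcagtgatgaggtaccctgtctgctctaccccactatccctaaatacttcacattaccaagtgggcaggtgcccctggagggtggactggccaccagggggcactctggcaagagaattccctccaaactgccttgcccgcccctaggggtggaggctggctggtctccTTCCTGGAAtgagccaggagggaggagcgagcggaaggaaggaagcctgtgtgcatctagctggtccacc
Cyp27a1, chr9:83713282-83713531, plus strand: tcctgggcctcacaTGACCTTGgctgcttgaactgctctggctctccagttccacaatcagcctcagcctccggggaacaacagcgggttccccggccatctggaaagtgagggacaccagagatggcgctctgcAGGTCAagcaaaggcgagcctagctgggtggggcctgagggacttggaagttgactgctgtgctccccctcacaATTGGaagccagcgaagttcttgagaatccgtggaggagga
Slc27a5, chr1:82699336-82699585, minus strand: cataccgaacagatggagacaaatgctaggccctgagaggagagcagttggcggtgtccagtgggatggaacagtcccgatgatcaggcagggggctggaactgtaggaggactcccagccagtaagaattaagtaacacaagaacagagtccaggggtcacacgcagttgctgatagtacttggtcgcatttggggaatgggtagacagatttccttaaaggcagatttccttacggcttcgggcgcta
The Baat window held TTCAGAGAA at positions -190 to -182, and the Hsd3b7 window held TTCCTGGAA at -70 to -62. Both match TTCNNNGAA, the letters of a Stat5 site, a motif that was added after the values were seen and that stood in 7.67% of all 33469 promoter windows. It was also found in the window of Nr0b2, so 3 of the 6 windows held it. The Cyp27a1 window held the reverse complement of CAAGGTCA, a site of Nr5a2, at -236 to -229 (1.33% of all windows). That site contains AGGTCA, the core letters of nuclear receptor sites, which recurred at -115 to -110 and stood in 14.1% of all windows. CCAAT, in 34% of all windows, was matched in reverse at -41 to -37 of Cyp27a1. The E box CACGTG (5.59%) and TATAAA (12.9%) were matched in Nr0b2 alone among the 6. None of the 6 windows held the D box TTATGTAA (0.828%), the Cebp site TTGCGCAA (0.14%), the inverted repeat of AGGTCA spaced by 1 base that FXR binds (0.0269%), its direct repeat spaced by 1 base (0.0508%) or the glucocorticoid receptor site (0.012%). Slc27a5 and Cyp8b1 held no match to any motif searched. A match describes letters and not binding, and a missing match says only that the letters are not in this window.

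The first comparison asked what the loss of corticosteroid-binding globulin did to these genes. No member of the group passed the test between KO and WT livers in either sex at either age. By edgeR's quasi-likelihood test with Benjamini-Hochberg adjustment, 0 of 10 were called in 60-day males, where 0.209% of all genes tested were called, 0 of 10 in 60-day females (6.77%), 0 of 10 in 30-day males (0.0545%) and 0 of 10 in 30-day females (0.3%). At an unadjusted p below 0.05 the counts were 2, 2, 1 and 1 in the same order, and DESeq2 and limma also called 0 in each. The median log2 fold change of the 10 genes, KO over WT, was -0.16 in 60-day males, -0.06 in 60-day females, -0.01 in 30-day males and 0.09 in 30-day females, beside 0.00, 0.01, 0.00 and 0.01 over all genes tested. The titles of the 30-day samples carry a number, 1 or 2, whose meaning is not known here. It was 2 in 4 of 4 KO females and 1 of 4 WT females, and in 1 of 4 KO males and 2 of 4 WT males, so in 30-day females genotype, and in 30-day KO livers sex, nearly followed it. With that number in the fit the 30-day counts of called genes were the same as without it. In bulk liver a lower share of hepatocytes and less RNA per hepatocyte cannot be told apart, here and in what follows. The count in 60-day females was again 0 without the library with photoreceptor RNA, with a median of 0.02 over the 10 genes, while 399 of 11068 genes were called there, against 745 of 11002 with it.

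**Figure D1:**
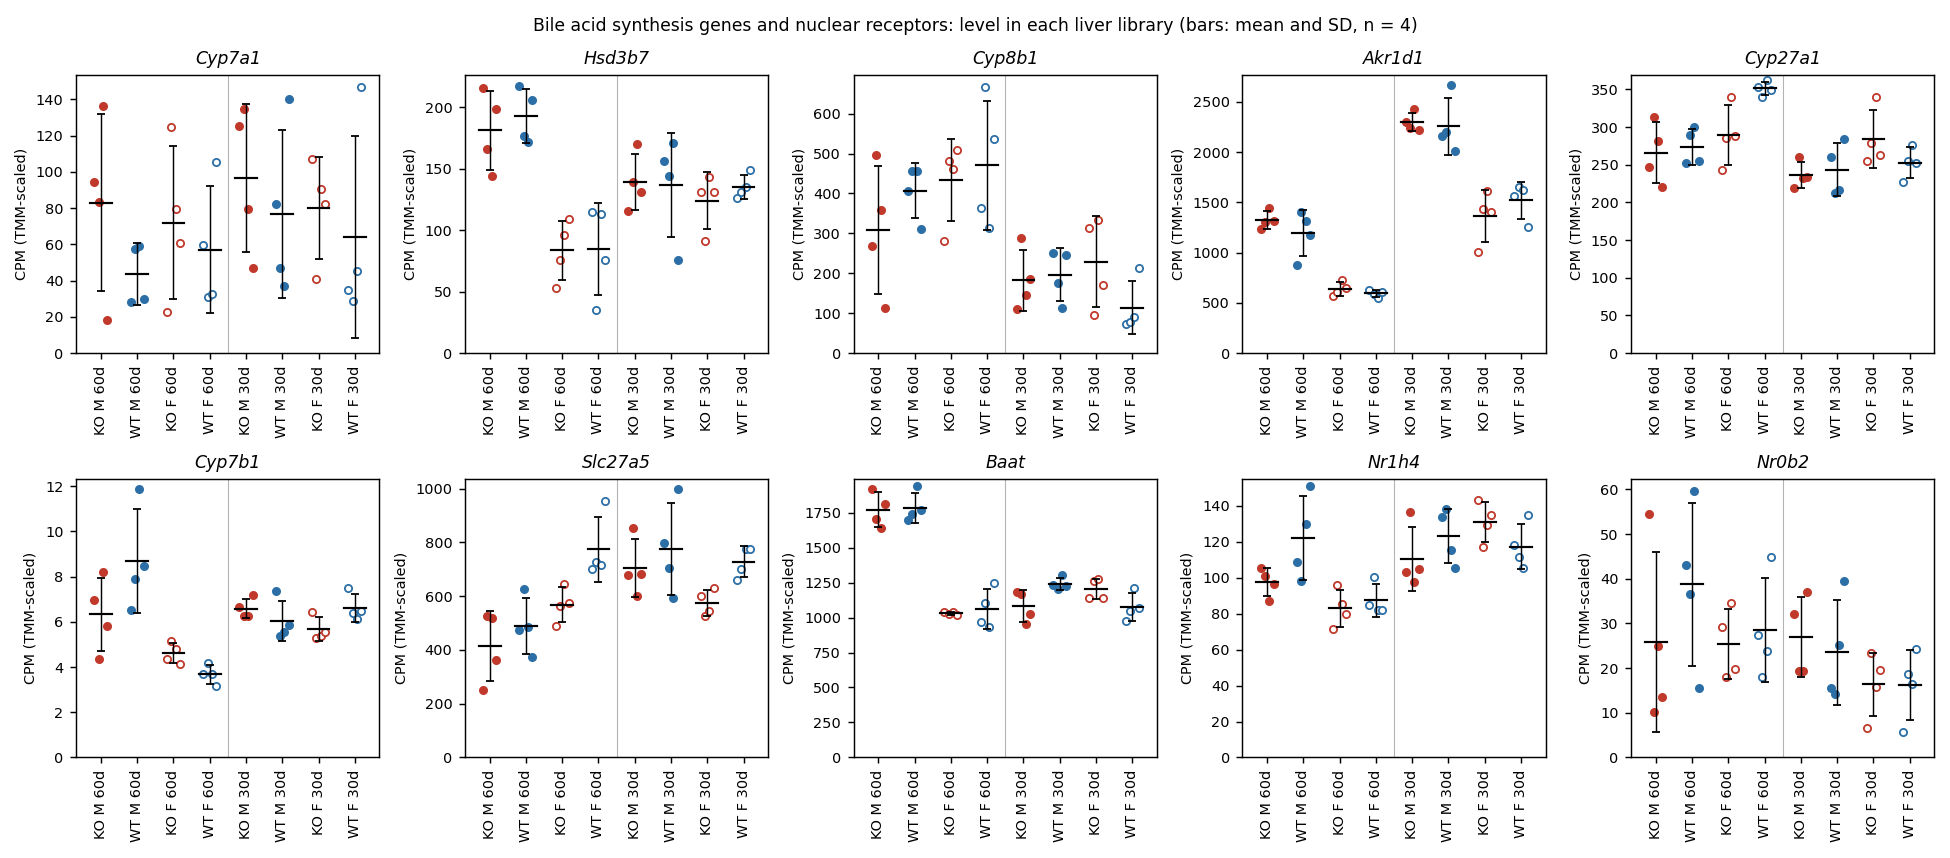
Level of each of the 10 genes in every library, in CPM on linear axes that start at 0. KO is red and WT blue, males are filled and females open, and the horizontal and vertical bars show the mean and SD of 4 libraries. Akr1d1, Baat and Hsd3b7 separate males from females at 60 days, and the points of Cyp7a1 and Nr0b2 scatter widely within groups.

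Cyp7a1, the rate-limiting enzyme, had a higher mean in KO than in WT livers in all 4 comparisons, and none of these differences stood out from the spread. In 60-day males it read 94.1, 83.4, 136 and 18.0 CPM in KO livers, against 28.3, 57.5, 59.3 and 29.8 CPM in WT livers. The groups overlapped, because the lowest of all 8 was a KO liver. The log2 fold change was 0.92 ± 0.61 (SE; 95% interval -0.34 to 2.19; adjusted p = 0.627). In the other comparisons it lay between 0.33 and 0.34, with intervals from -0.91 to 1.59, so these livers do not tell a log2 change of 0 from a change of 1. In 60-day females it was 0.63 without the library with photoreceptor RNA (adjusted p = 0.672).

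Cyp8b1, which sets the amount of cholic acid, came nearest to a difference in 30-day females. It read 314, 96.7, 333 and 170.0 CPM in KO livers, against 74.2, 79.1, 91.2 and 212 CPM in WT livers. One WT liver lay above 2 of the KO livers. That liver was the only one of the 4 WT livers with the number 2 in its title, which all 4 KO livers carry. Genotype and that number can therefore hardly be told apart here. The log2 fold change was 1.00 ± 0.43 and did not pass (adjusted p = 0.398). In 60-day females Cyp8b1 read 281, 482, 461 and 508 CPM in KO livers, against 363, 667, 314 and 537 CPM in WT livers, which overlapped (adjusted p = 0.913).

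Cyp27a1 of the alternative pathway and the activating enzyme Slc27a5 gave the lowest adjusted p-values of the genotype comparison, in 60-day females. Cyp27a1 read 243, 285, 339.9 and 288 CPM in KO livers, against 354, 340.4, 362 and 349.7 CPM in WT livers. Slc27a5 read 491, 562, 646 and 576 CPM in KO livers, against 701, 726, 717 and 954 CPM in WT livers. In both genes every KO liver lay below every WT liver, by a margin of less than 1 CPM for Cyp27a1. How many of all genes tested separated in this way was not counted, here or below. The log2 fold changes were -0.28 ± 0.11 for Cyp27a1 (adjusted p = 0.126) and -0.44 ± 0.18 for Slc27a5 (adjusted p = 0.142), and neither was called. Without the library with photoreceptor RNA the values were -0.21 (adjusted p = 0.365) and -0.38 (adjusted p = 0.327). Slc27a5 also did not overlap in 30-day females, with 528 to 632 CPM in KO livers and 661 to 777 CPM in WT livers (log2 fold change -0.34 ± 0.18, adjusted p = 0.508).

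Cyp7b1, the ring hydroxylase of the alternative pathway, was counted at 41 to 187 reads per library. In 60-day males it read 6.95, 4.36, 8.18 and 5.81 CPM in KO livers, against 6.50, 7.90, 11.9 and 8.48 CPM in WT livers. The groups overlapped, and the log2 fold change of -0.46 ± 0.16 was not called (adjusted p = 0.261). In 60-day females the estimate had the other sign, 0.32 ± 0.17 (adjusted p = 0.299, and 0.361 without the library with photoreceptor RNA), with 4.15 to 5.16 CPM in KO livers and 3.15 to 4.17 CPM in WT livers. The test of the difference between the sexes in the effect of genotype gave -0.78 ± 0.24 on the log2 scale (95% interval -1.26 to -0.30) and did not pass (adjusted p = 0.185). It was -0.81 without the library with photoreceptor RNA (adjusted p = 0.210).

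The receptors and Baat gave no call either. Nr1h4 in 60-day males read 106, 101, 87.0 and 96.6 CPM in KO livers, against 109, 98.2, 129.7 and 151 CPM in WT livers, which overlapped (log2 fold change -0.32 ± 0.12, adjusted p = 0.311). Nr0b2 in the same groups ranged from 10.1 to 54.6 CPM in KO livers and from 15.6 to 59.7 CPM in WT livers, with an interval of the log2 fold change from -1.62 to 0.44. Baat was measured most tightly, with intervals that stayed between -0.37 and 0.34 in all 4 comparisons. In 30-day males its KO livers, at 950.2 to 1182 CPM, lay below its WT livers, at 1206 to 1305 CPM, but the log2 fold change of -0.20 ± 0.08 was not called (adjusted p = 0.736).

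**Figure D2:**
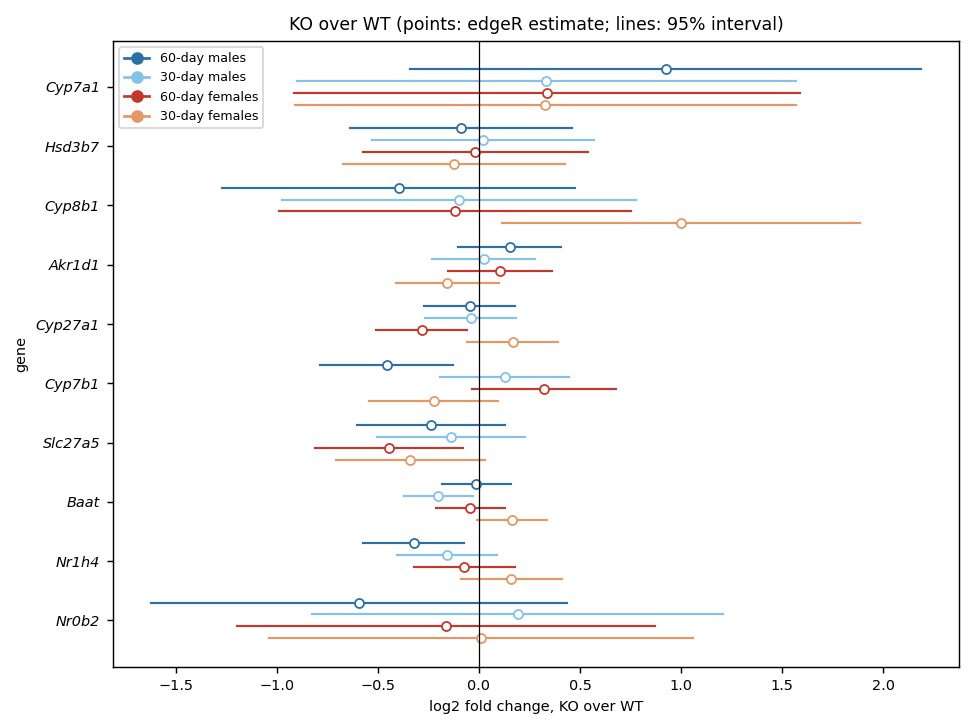
Log2 fold change of KO over WT for each gene, with 95% intervals from edgeR, in males (dark and light blue for 60 and 30 days) and females (red and orange for 60 and 30 days). All points are open because 0 of 10 genes passed in any of the 4 comparisons, and the intervals of Cyp7a1, Nr0b2 and Cyp8b1 are the widest.

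The second comparison set males against females, and more of the 10 genes were called at 60 than at 30 days. A change of the sex difference with age passed its own test in only 1 of 10 genes in KO and 2 of 10 in WT livers. In 60-day WT livers 7 of 10 genes were called, where 26.4% of all genes were called. Hsd3b7, Akr1d1, Cyp7b1, Baat and Nr1h4 were higher in males (5 of 10, beside 13.7% of all genes), and Cyp27a1 and Slc27a5 were lower (2 of 10, beside 12.7%). In 60-day KO livers 3 of 10 were called, Hsd3b7, Akr1d1 and Baat, all higher in males (18.5% of all genes called, 9.63% higher in males). At 30 days Akr1d1 alone was called, higher in males, in KO livers (1 of 10, beside 2.24% of all genes called and 0.854% higher) and in WT livers (1 of 10, beside 2.07% called and 1.08% higher). The median log2 fold change of the 10 genes, males over females, was 0.22 in 60-day KO livers and 0.47 in 60-day WT livers, beside -0.02 and 0.00 over all genes tested. The KO median was 0.13 without the library with photoreceptor RNA. Markers also differed between the sexes. Of 8 hepatocyte markers 4 were called higher and 1 lower in males in 60-day KO livers (median 0.35), and 4 higher and 0 lower in 60-day WT livers (median 0.29). Of 10 Kupffer cell markers 1 was called higher and 0 lower in males in 60-day KO livers, and 0 higher and 4 lower in 60-day WT livers. Of 7 cholangiocyte markers 1 was higher and 1 lower in KO, and 2 higher and 1 lower in WT. Without the library with photoreceptor RNA the 60-day KO counts were 0 higher and 0 lower for Kupffer cell markers. They were unchanged for hepatocyte and cholangiocyte markers. In 60-day KO livers the cholangiocyte genes summed to 40.8 to 52.0 CPM in males and 37.1 to 47.3 CPM in females, and the Kupffer cell genes to 419 to 789 CPM in males and 603 to 835 CPM in females. In 60-day WT livers the cholangiocyte genes summed to 45.0 to 48.2 CPM in males and 31.3 to 39.3 CPM in females, and the Kupffer cell genes to 508 to 629 CPM in males and 668 to 1015 CPM in females. Their part in the sex differences was not tested.

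Akr1d1, the reductase that sets the shape of the steroid ring, was the member that differed between the sexes at both ages and in both genotypes. At 60 days it read 1232, 1301, 1445 and 1316 CPM in KO males, against 571, 609, 725 and 649 CPM in KO females. In WT livers it read 881, 1403, 1309.8 and 1173 CPM in males, against 627, 593, 549.8 and 605 CPM in females. No male overlapped a female, and the log2 fold changes were 1.05 ± 0.13 in KO (adjusted p = 2.53e-07) and 1.00 ± 0.13 in WT (adjusted p = 3.58e-07). At 30 days the males again lay above the females in both genotypes, by 0.75 ± 0.13 in KO (adjusted p = 0.000512) and 0.57 ± 0.13 in WT (adjusted p = 0.0100). The 30-day WT call ended without replicate 4 of the females (adjusted p = 0.0597) or replicate 3 of the males (adjusted p = 0.0583).

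Hsd3b7, which acts directly after Cyp7a1, was higher in males of both genotypes at 60 days. It read 216, 166, 144 and 199 CPM in KO males, against 53.3, 75.8, 96.0 and 109 CPM in KO females, and 217, 177, 172 and 206 CPM in WT males, against 115, 34.9, 113 and 75.8 CPM in WT females. Every male lay above every female of its genotype. The log2 fold changes were 1.12 ± 0.27 in KO (adjusted p = 0.0039) and 1.19 ± 0.27 in WT (adjusted p = 0.00158). At 30 days the male and female ranges overlapped in both genotypes and neither difference was called.

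Cyp7b1 was higher in males among WT livers at 60 days, with 6.50, 7.90, 11.9 and 8.48 CPM in males, against 3.70, 4.17, 3.71 and 3.15 CPM in females. The groups did not overlap, and the log2 fold change was 1.24 ± 0.17 (adjusted p = 1.35e-06). In KO livers the males, at 4.36 to 8.18 CPM, overlapped the females, at 4.15 to 5.16 CPM, and the difference of 0.46 ± 0.17 was not called (adjusted p = 0.0559, and 0.122 without the library with photoreceptor RNA). Without replicate 2 of the KO males it was 0.60 and was called (adjusted p = 0.00897). The difference between the genotypes in the sex effect is the interaction given above, which did not pass.

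Cyp27a1 and Slc27a5 were the members that were lower in males. In 60-day WT livers Cyp27a1 read 252, 289, 299.6 and 255 CPM in males, against 354, 340.4, 362 and 349.7 CPM in females (log2 fold change -0.36 ± 0.11, adjusted p = 0.0148). Slc27a5 read 473, 628, 484 and 374 CPM in males, against 701, 726, 717 and 954 CPM in females (-0.66 ± 0.18, adjusted p = 0.00637). Neither gene's groups overlapped, and the Cyp27a1 call ended without replicate 1 of the WT males (adjusted p = 0.0513). In 60-day KO livers both overlapped between the sexes, with log2 fold changes of -0.12 ± 0.11 for Cyp27a1 (adjusted p = 0.506) and -0.45 ± 0.18 for Slc27a5 (adjusted p = 0.0798). Slc27a5 was called in KO livers without replicate 2 (adjusted p = 0.0296) or replicate 3 (adjusted p = 0.0333) of the males, and by limma (adjusted p = 0.0481). The sex-by-genotype interactions were 0.24 ± 0.16 and 0.21 ± 0.25 and did not pass (adjusted p = 0.640 and 0.836). Leaving out the library with photoreceptor RNA gave KO differences of -0.20 for Cyp27a1 (adjusted p = 0.288) and -0.52 for Slc27a5 (adjusted p = 0.0700), and interactions of 0.16 and 0.14.

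Baat, the last enzyme of the pathway, stood furthest outside its own spread. At 60 days it read 1921, 1702, 1640.2 and 1814 CPM in KO males, against 1040.3, 1024, 1041 and 1019 CPM in KO females. WT males had 1695, 1739, 1940.2 and 1767 CPM and WT females 969, 1104, 930.0 and 1244 CPM. The lowest male was far above the highest female in each genotype, and the log2 fold changes were 0.78 ± 0.08 in KO (adjusted p = 4.97e-08) and 0.75 ± 0.08 in WT (adjusted p = 6.19e-08). At 30 days neither difference was called, with estimates of -0.16 ± 0.08 in KO and 0.21 ± 0.08 in WT. Nr1h4 was called in 60-day WT livers although one male lay below the highest female, with 98.2 to 151 CPM in males and 81.9 to 101 CPM in females (0.48 ± 0.12, adjusted p = 0.00353). In 60-day KO livers it had 87.0 to 106 CPM in males and 71.2 to 95.7 CPM in females (0.23 ± 0.12, adjusted p = 0.209), and 0.16 without the library with photoreceptor RNA (adjusted p = 0.468).

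Cyp7a1, Cyp8b1 and Nr0b2 were called between the sexes in none of the 4 comparisons. Their male and female ranges overlapped in each, and their 95% intervals at 60 days ran from -1.64 to 1.45 for Cyp7a1, from -1.36 to 0.67 for Cyp8b1 and from -1.02 to 1.47 for Nr0b2. Without the library with photoreceptor RNA, the 60-day KO comparison again called 3 genes, with log2 fold changes of 0.95 for Hsd3b7 (adjusted p = 0.0222), 1.00 for Akr1d1 (adjusted p = 3.51e-06) and 0.78 for Baat (adjusted p = 4.23e-07).

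**Figure D3:**
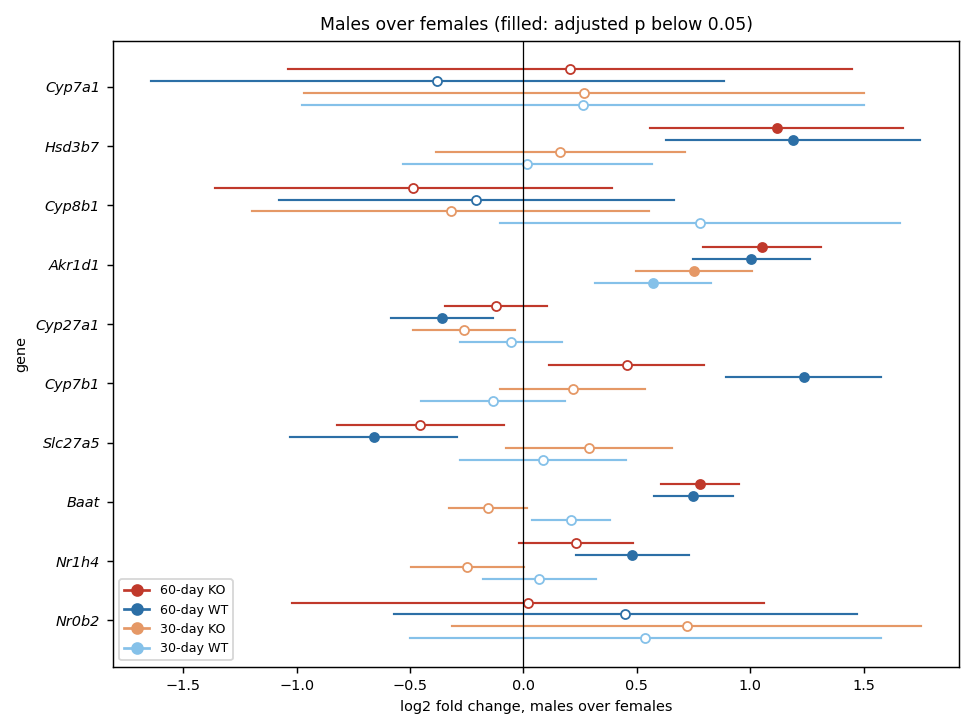
Log2 fold change of males over females for each gene, with 95% intervals from edgeR, in 60-day livers (red KO, blue WT) and 30-day livers (orange KO, light blue WT). Filled points are called. Akr1d1 is filled in all 4 comparisons, Hsd3b7 and Baat only at 60 days, and Cyp7b1, Cyp27a1, Slc27a5 and Nr1h4 only in 60-day WT livers.

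The third comparison set 60-day against 30-day livers. The counts of called genes, of 10, were 3 in KO males (28.4% of all genes), 4 in WT males (31.5%), 2 in KO females (22.7%) and 5 in WT females (33.1%). Akr1d1 fell in all 4. Baat rose and Slc27a5 fell in males of both genotypes, and Nr1h4 fell in females of both. Cyp8b1 and Cyp27a1 rose in WT females, while Cyp7b1 fell in WT females and rose in WT males. In KO males 1 gene was higher (beside 14% of all genes) and 2 lower (14.5%), in WT males 2 higher (15.7%) and 2 lower (15.8%), in KO females 2 lower (12.1%), and in WT females 2 higher (16%) and 3 lower (17.1%). These shares are of the order of the background. Among markers of other cells, Col1a2 was listed at 0 in every library. Of 8 stellate cell markers tested, 4 were lower at 60 days in KO males, 5 in WT males, 3 in KO females and 7 in WT females. Their sum was 476 to 671 CPM in 60-day KO livers and 904 to 1513 CPM in 30-day KO livers, and 310 to 587 CPM in 60-day WT livers and 923 to 1492 CPM in 30-day WT livers. Of 7 cholangiocyte markers 4, 3, 3 and 2 were lower in the same order, and of 6 endothelial markers 1, 4, 2 and 3. Of 10 Kupffer cell markers 5 were higher and 1 lower at 60 days in WT females. The counts were 1 higher and 1 lower in KO males, and 0 higher and 1 lower in WT males and in KO females. Of 8 hepatocyte markers 2 were higher and 2 lower in KO males and in WT males, 1 higher and 4 lower in KO females, and 0 higher and 3 lower in WT females. Without the library with photoreceptor RNA, the KO female counts were 0 lower for endothelial markers and 1 higher and 1 lower for Kupffer cell markers. The stellate cell, cholangiocyte and hepatocyte counts there did not change. The part of these markers in the differences with age was not tested.

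Akr1d1 fell by 0.79 ± 0.13 on the log2 scale in KO males (adjusted p = 1.49e-05), by 0.92 ± 0.13 in WT males (adjusted p = 1.49e-06), by 1.10 ± 0.13 in KO females (adjusted p = 2.12e-07) and by 1.36 ± 0.13 in WT females (adjusted p = 1.54e-09). WT females read 627, 593, 549.8 and 605 CPM at 60 days, against 1559, 1648, 1621 and 1253 CPM at 30 days, and no group of 60-day livers overlapped its 30-day group. Over the 8 groups its mean was highest in the 30-day males, at 2296 ± 91.5 CPM in KO and 2258 ± 283 CPM in WT (SD, n = 4 each), which overlapped. It was lowest in the 60-day females, at 638 ± 65.7 CPM in KO and 594 ± 32.6 CPM in WT, which also overlapped.

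Baat rose in males, to 1640.2 to 1921 CPM in 60-day KO livers, against 950.2 to 1182 CPM in 30-day KO livers (log2 fold change 0.71 ± 0.08, adjusted p = 2.00e-07). In WT males it had 1695 to 1940.2 CPM at 60 days and 1206 to 1305 CPM at 30 days (0.52 ± 0.08, adjusted p = 1.84e-05). In females the estimates were -0.22 ± 0.08 in KO (adjusted p = 0.0539) and -0.02 ± 0.08 in WT (adjusted p = 0.897), and neither was called by edgeR, while DESeq2 called the fall in KO females (adjusted p = 0.0485). The sex difference of Baat was therefore wider at 60 than at 30 days, by 0.94 ± 0.12 in KO (adjusted p = 8.14e-06) and 0.54 ± 0.12 in WT (adjusted p = 0.0033) by the sex-by-age interaction. Baat was the 1 gene of 10 called by this test in KO (beside 4.69% of all genes, 2.79% with a positive sign). In WT it was called with Cyp7b1, 2 of 10 (beside 9% of all genes, 4.62% with a positive sign). In KO the value was again 0.94 without the library with photoreceptor RNA (adjusted p = 2.32e-05).

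Cyp7b1 moved in opposite directions in WT livers. In WT males it read 6.50, 7.90, 11.9 and 8.48 CPM at 60 days, against 7.34, 5.39, 5.54 and 5.85 CPM at 30 days, a call that ended without replicate 3 of the 60-day males (adjusted p = 0.0985), by limma (adjusted p = 0.115) or when only the libraries compared were fitted (adjusted p = 0.0604). In WT females it read 3.70, 4.17, 3.71 and 3.15 CPM at 60 days, against 7.51, 6.39, 6.10 and 6.46 CPM at 30 days. The females did not overlap between ages and the males did. The log2 fold changes were 0.53 ± 0.16 in WT males (adjusted p = 0.0101) and -0.84 ± 0.17 in WT females (adjusted p = 0.000238), and the interaction of sex and age was 1.37 ± 0.23 (adjusted p = 0.000212). In KO livers the estimates were -0.06 ± 0.16 in males and -0.29 ± 0.16 in females, neither called, and the interaction was 0.24 ± 0.23 (adjusted p = 0.662). Whether this interaction differed between the genotypes was not tested.

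Cyp8b1 had a higher mean at 60 than at 30 days in every sex and genotype and was called in WT females. There it read 363, 667, 314 and 537 CPM at 60 days, against 74.2, 79.1, 91.2 and 212 CPM at 30 days, without overlap (log2 fold change 2.04 ± 0.44, adjusted p = 0.000792). The other estimates were 0.76 ± 0.43 in KO males (adjusted p = 0.196), 1.06 ± 0.43 in WT males (adjusted p = 0.0622) and 0.92 ± 0.43 in KO females (adjusted p = 0.128). The rise in WT males was called by DESeq2 (adjusted p = 0.0341) and when only the libraries compared were fitted (adjusted p = 0.0156). Cyp27a1 in WT females read 354, 340.4, 362 and 349.7 CPM at 60 days, against 227, 255, 276 and 253 CPM at 30 days (0.48 ± 0.11, adjusted p = 0.00122).

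Slc27a5 fell in males, by 0.76 ± 0.18 in KO (adjusted p = 0.00182) and by 0.66 ± 0.18 in WT (adjusted p = 0.00566). KO males had 253 to 526 CPM at 60 days and 600.2 to 855 CPM at 30 days, while in WT males the highest 60-day liver, at 628 CPM, lay above the lowest 30-day liver, at 595 CPM. Nr1h4 fell in females, by 0.66 ± 0.12 in KO (adjusted p = 0.000166) and by 0.43 ± 0.12 in WT (adjusted p = 0.00752), without overlap between ages in either. Without the library with photoreceptor RNA the KO values were -0.59 for Nr1h4 (adjusted p = 0.00134) and -1.05 for Akr1d1 (adjusted p = 2.11e-06). The KO female count was again 2. Cyp7a1, Hsd3b7 and Nr0b2 were not called with age in any group by edgeR over all libraries. Hsd3b7 came nearest in WT females, with 34.9 to 115 CPM at 60 days and 126 to 149 CPM at 30 days, without overlap (log2 fold change -0.68 ± 0.27, adjusted p = 0.0552). That difference was called by DESeq2 (adjusted p = 0.0267), by limma (adjusted p = 0.0103) and by edgeR without replicate 1 (adjusted p = 0.0255) or replicate 3 (adjusted p = 0.0286) of the 60-day WT females.

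On the deposited log2 values, which carry no scaling between libraries, the median of all genes lay between -0.21 and -0.12 in the 4 age comparisons. Limma on those values called 5 of 10 genes in KO females, where Hsd3b7 (-0.76, adjusted p = 0.0404), Cyp7b1 (-0.45, adjusted p = 0.0442) and Baat (-0.38, adjusted p = 0.00099) joined Akr1d1 and Nr1h4, and the median there was -0.16. It also called Nr1h4 in KO males (-0.36, adjusted p = 0.0206), where the median was -0.21. The change with age was tested between the genotypes as well. In females 0 of 10 genes were called (2.96% of all genes; 2 at an unadjusted p below 0.05) and in males 0 of 10 (0.00909%; 1 at an unadjusted p below 0.05). The change with sex was likewise called between the genotypes in 0 of 10 genes at 60 days (0.136%; 1 at an unadjusted p below 0.05) and in 0 of 10 at 30 days (0%; 1 at an unadjusted p below 0.05). DESeq2 and limma called 0 in each of these 4 tests, and so did the fits without the library with photoreceptor RNA in the tests that use it. Cyp27a1 came nearest in females, with an age-by-genotype difference of -0.45 ± 0.16 (adjusted p = 0.104), and -0.38 without the library with photoreceptor RNA (adjusted p = 0.225).

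**Figure D4:**
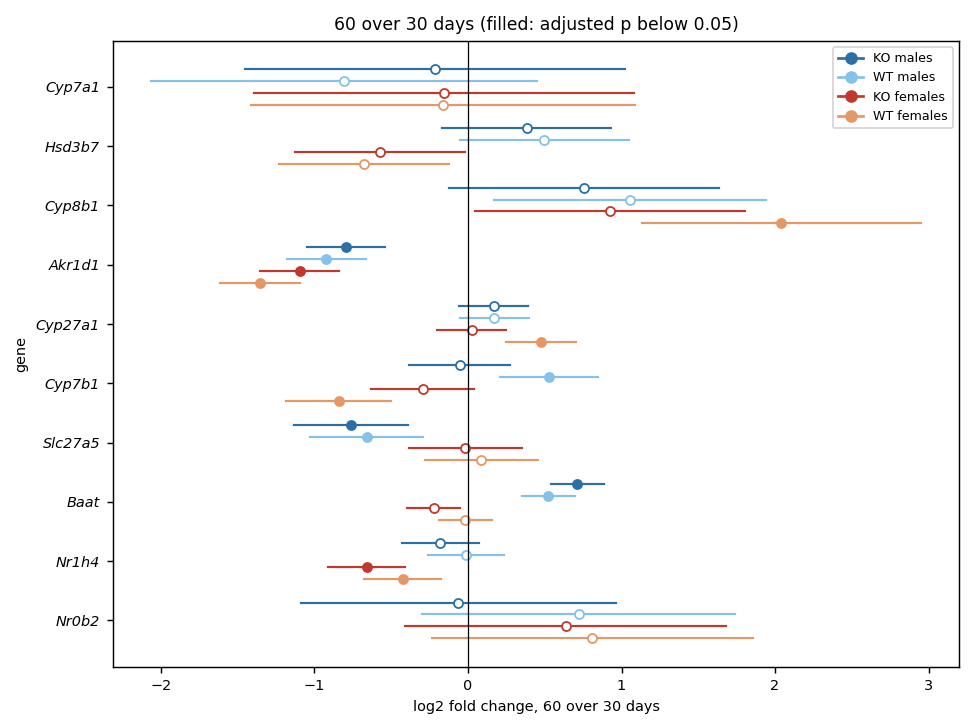
Log2 fold change of 60 over 30 days for each gene, with 95% intervals from edgeR, in males (dark blue KO, light blue WT) and females (red KO, orange WT). Filled points are called. Akr1d1 lies left of 0 and is filled in all 4 comparisons, Baat is filled in males only, and Nr1h4 in females only.

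The members differed widely in how much livers of one group varied. The pooled SD of log2 CPM within groups was 0.897 for Cyp7a1, larger than for 99.3% of the 10101 genes with at least 1 CPM on average. Nr0b2 (0.748, larger than 98.5%), Cyp8b1 (0.626, 97.4%) and Hsd3b7 (0.415, 90.6%) followed. Slc27a5 (0.271), Cyp7b1 (0.223), Akr1d1 (0.187), Nr1h4 (0.180) and Cyp27a1 (0.160) lay nearer the median of all genes, 0.178, and Baat (0.114) varied more than only 17.0% of genes. The highest over the lowest liver of a group reached 7.57-fold for Cyp7a1 in 60-day KO males, 5.46-fold for Cyp7a1 in 60-day KO females and 5.39-fold for Nr0b2 in 60-day KO males. Leaving out the library with photoreceptor RNA gave 0.851 for Cyp7a1, 0.762 for Nr0b2, 0.624 for Cyp8b1 and 0.116 for Baat. Cyp7a1, Nr0b2 and Cyp8b1 also had the widest intervals of the 10 genes in each comparison of 2 groups.

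The closest relation between members by Pearson's r was that of Cyp7a1 and Cyp8b1. It passed over 32 libraries but not without the library with photoreceptor RNA, the only library left out singly. Over 32 libraries, after the mean of each group was taken off, Pearson's r was 0.70 (permutation p = 0.00034, adjusted p = 0.0289 over 85 relations) and Spearman's rho 0.66 (permutation p = 5e-04, adjusted p = 0.0212). It was 0.73 within the 30-day and 0.69 within the 60-day libraries, and 0.61 without the 2 libraries farthest from the median of Cyp7a1. It was the only one of the 85 relations to pass by Pearson's r over 32 libraries. By Spearman's rho 5 more passed. Slc27a5 passed with Cyp7a1 (rho 0.62, adjusted permutation p = 0.0241; r 0.51, adjusted permutation p = 0.209) and with Cyp8b1 (rho 0.66, adjusted permutation p = 0.0212; r 0.53, adjusted permutation p = 0.139). Cyp27a1 passed with Slc27a5 (rho 0.62, adjusted permutation p = 0.0419; r 0.59, adjusted permutation p = 0.129) and with Cyp8b1 (rho 0.58, adjusted permutation p = 0.047; r 0.58, adjusted permutation p = 0.129), and Hsd3b7 passed with the clock gene Per2 (rho -0.57, adjusted permutation p = 0.047; r -0.44, adjusted permutation p = 0.42). Over the 31 libraries other than the one with photoreceptor RNA, 0 of the 85 relations passed by either measure. There Cyp7a1 and Cyp8b1 had r of 0.69 (adjusted permutation p = 0.117) and rho of 0.63 (adjusted permutation p = 0.0612), and Hsd3b7 and Per2 had rho of -0.61 (adjusted permutation p = 0.0612). The lowest adjusted permutation p over 31 libraries was 0.117 by r and 0.0612 by rho. The relation of Cyp7a1 with Nr0b2 (r 0.26, rho 0.28, adjusted permutation p = 0.804 and 0.724) and that of Nr1h4 with Nr0b2 (r -0.37, rho -0.38, adjusted permutation p = 0.409 and 0.415) did not pass.

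**Figure D5:**
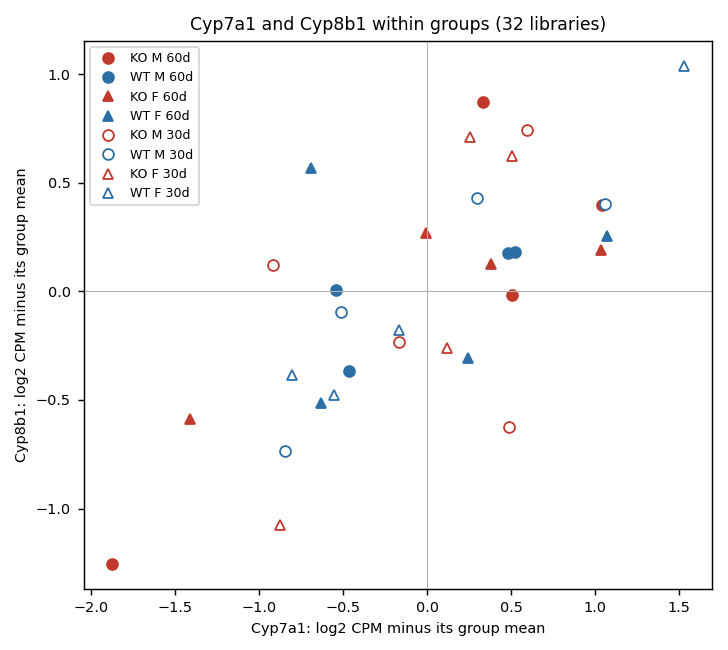
Log2 CPM of Cyp8b1 (y axis) against Cyp7a1 (x axis) in each of 32 libraries, both less the mean of the library's group. KO is red and WT blue, circles are males and triangles females, and filled symbols are 60-day livers. The points rise together, with Pearson's r of 0.70, and 0.69 without the library with photoreceptor RNA.

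Clock genes were looked at because no source used here gives the hour of collection. In 60-day females Dbp, a clock output that is known to act on Cyp7a1, read 33.9, 14.4, 5.23 and 5.08 CPM in KO livers, against 4.80, 2.35, 2.93 and 2.00 CPM in WT livers (log2 fold change 2.27 ± 0.45, adjusted p = 0.0026). Per2 read 33.1, 52.2, 29.6 and 31.8 CPM in KO livers, against 10.9, 12.1, 7.10 and 18.7 CPM in WT livers (1.60 ± 0.28, adjusted p = 0.000987). Both genes were higher in every KO female than in every WT female, and the Dbp value of 33.9 CPM came from the library with photoreceptor RNA. Without it the log2 fold changes were 1.45 for Dbp (adjusted p = 0.0187) and 1.64 for Per2 (adjusted p = 0.00243). Nr1d1 averaged 35.0 CPM in KO and 33.4 CPM in WT females at 60 days, and Arntl 41.8 and 49.9 CPM. Neither of these was called without that library (log2 fold change -0.55, adjusted p = 0.775, and -0.21, adjusted p = 0.348). Of 14 clock genes tested, 4 were called higher and 1 lower in 60-day KO females, beside 6.77% of all genes. Without that library the counts were 4 and 0. In 60-day males neither Dbp nor Per2 was called (adjusted p = 0.934 and 0.529). Within groups Cyp7a1 had r of -0.11 with Dbp, 0.35 with Per2, 0.08 with Nr1d1 and -0.14 with Arntl, and none of the 4 passed (adjusted permutation p of at least 0.42). Among all 10 genes and the 4 clock genes, Hsd3b7 with Per2 was the relation that passed, by rho and over 32 libraries, as given above. Over 31 libraries r of Cyp7a1 with Dbp was 0.18. The part of the clock genes in the values of the 10 genes was not tested further.

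The genes most like a member, by Pearson's r of log2 CPM over 32 libraries less their group means, were sought among 10100 genes. For Cyp7a1 they were Cxcl12 (r 0.79), Psmf1 (0.77) and Rogdi (0.75), followed by Ebp (0.74), a sterol isomerase of cholesterol synthesis. For Cyp8b1 they were Smpd3 (0.83), Rnf130 (0.78), Pebp1 (0.76) and Idh1 (0.75). Cyp27a1 was closest to Plbd2 (0.78), Rpl12 (0.74) and Fdx1 (0.73), the ferredoxin that passes electrons to mitochondrial cytochromes P450. Nr1h4 was closest to Ss18 (0.79), N4bp2l2 (0.71) and Amacr (0.64), a racemase of the bile acid side chain, and had Ppargc1a, a coactivator of fasting metabolism, among its 5 most opposed genes (-0.65). Baat was closest to Acbd4 (0.74), Nr0b2 to Hes1 (0.65), Akr1d1 to Fam195a (0.76), Hsd3b7 to Sqstm1 (0.74), Slc27a5 to Slc48a1 (0.74) and Cyp7b1 to Abcc9 (0.66). These are descriptions of the best of many genes and carry no test.

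Around the 10 genes, 24 other enzymes of bile acid metabolism, 41 regulators of the pathway and 27 FXR targets and bile acid transporters were tested. KO over WT, all 3 lists had 0 calls in either sex at 30 days. In 60-day males the regulator Cebpb was the only call, lower in KO (log2 fold change -1.01 ± 0.17, adjusted p = 0.00792). In 60-day females 1 of the 24 enzymes was higher and 4 lower in KO, 3 of 41 regulators higher and 2 lower, and 2 of 27 targets and transporters higher and 5 lower, beside 6.77% of all genes called. The medians of the 3 lists were -0.11, -0.08 and -0.01, beside 0.01 over all genes. Called members included Stard4, a cholesterol carrier (-0.78 ± 0.15, adjusted p = 0.00171), and Nr1i3, the xenobiotic receptor CAR (-2.28 ± 0.52, adjusted p = 0.00805). Abcb4, which moves phospholipid into bile (-0.68 ± 0.10, adjusted p = 0.000122), and Pck1, a gluconeogenic enzyme (-1.50 ± 0.33, adjusted p = 0.00675), were called lower as well. Tef, a relative of Dbp (0.94 ± 0.18, adjusted p = 0.00188), and Sdc1, a heparan sulfate proteoglycan (0.47 ± 0.12, adjusted p = 0.0142), were higher. Of 25 genes of cholesterol synthesis, which supplies the pathway's substrate, 15 were called lower in 60-day KO females and 0 higher (median -0.71, beside 6.77% of all genes called), among them Hmgcs1 (-1.75 ± 0.24, adjusted p = 6.15e-05) and Cyp51 (-1.15 ± 0.18, adjusted p = 0.000316). In the other comparisons of KO with WT 0 of the 25 were called. Their estimates were positive in 3 of 25 in 60-day males (median -0.14), 24 of 25 in 30-day males (median 0.32) and 25 of 25 in 30-day females (median 0.36). When the library with photoreceptor RNA was left out, the counts higher and lower in 60-day KO females were 1 and 3 for the enzymes, 2 and 2 for the regulators, 3 and 2 for the targets and transporters and 0 and 10 for cholesterol synthesis. The named genes were called without it as well, with Cyp3a9 at -2.57, Akr1c2 at -7.50, Sult2a2 at 5.96, Stard4 at -0.80 and Nr1i3 at -2.31. Abcb4 was at -0.67, Pck1 at -1.67, Tef at 0.71, Sdc1 at 0.50, Hmgcs1 at -1.68 and Cyp51 at -1.07.

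Between the sexes at 60 days 18.5% of all genes were called in KO livers and 26.4% in WT livers. The other enzymes were called higher in males in 4 and lower in 7 of 24 in KO livers, and higher in 4 and lower in 8 of 24 in WT livers. Cyp2c11 had the smallest adjusted p of this list in both genotypes and was higher in males (13.9 ± 0.89 in KO, 12.1 ± 0.79 in WT). Its means in females were 0.110 CPM in KO and 0.441 CPM in WT. Srd5a1, a steroid reductase (-1.87 ± 0.25 in KO, -2.60 ± 0.26 in WT), and Fdx1 (-1.33 ± 0.18 in KO, -1.50 ± 0.18 in WT) were lower in males of both genotypes. The regulators were called higher in 6 and lower in 3 of 41 in KO livers, and higher in 5 and lower in 8 in WT livers. Esr1, an estrogen receptor, was higher in KO males (1.82 ± 0.45), and Jun was higher in WT males (2.03 ± 0.36). Vdr, the vitamin D receptor, was lower in males of both genotypes (-3.28 ± 0.63 in KO, -3.38 ± 0.78 in WT), at few reads. Its means were 0.153 CPM in KO males, 1.53 CPM in KO females, 0.0676 CPM in WT males and 0.774 CPM in WT females. The targets and transporters were called higher in 7 and lower in 4 of 27 in KO livers, and higher in 6 and lower in 6 in WT livers. Cyp3a2 had the smallest adjusted p of this list in both genotypes and was higher in males (9.80 ± 0.47 in KO, 10.1 ± 0.49 in WT). Its means in females were 2.18 CPM in KO and 1.23 CPM in WT. Atp8b1, a phospholipid flippase of the bile canaliculus, was lower in males of both genotypes (-0.61 ± 0.13 in KO, -0.91 ± 0.13 in WT). Abcb4 was lower in WT males (-0.95 ± 0.10, adjusted p = 2.29e-08), and its sex-by-genotype interaction at 60 days passed (0.93 ± 0.14, adjusted p = 0.00234), which none of the 10 genes' did. That interaction was 0.92 without the library with photoreceptor RNA (adjusted p = 0.00764), and then the 60-day KO counts higher and lower in males were 3 and 7 for the enzymes, 1 and 3 for the regulators and 6 and 4 for the targets and transporters. With age the cholesterol efflux transporter Abcg5 was lower at 60 days in each sex and genotype, with log2 fold changes of -3.89 ± 0.43 in KO males, -3.93 ± 0.44 in WT males, -3.90 ± 0.43 in KO females and -2.75 ± 0.41 in WT females, and it was called in each. The KO female value was -3.72 without the library with photoreceptor RNA.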

How the data were processed

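Liver messenger RNA was sequenced in 32 samples. Per the labels, a Trizol extraction was followed by a stranded library kit. The authors deposited counts of reads per gene (17327 genes and 2 lines for reads on no feature or ambiguous reads) and log2 CPM values for 11344 genes. These deposited log2 values equalled values recomputed from the counts to 5.0e-09. The submitters' processing notes list STAR, Cufflinks, limma and the assembly Rnor_5.0, without roles or versions. Of the reads in a library 18.05% to 21.18% lay on no feature, and these stayed out of library sizes.

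The test was that of edgeR 4.0.16, run on the counts in R 4.3.3. Genes were kept by filterByExpr with a minimum count of 10 and a smallest group of 4, libraries were scaled by trimmed means, and a robust quasi-likelihood model with a mean for each of the 8 groups was fitted to the 32 libraries (24 residual degrees of freedom, biological coefficient of variation 0.148). Genes with a Benjamini-Hochberg adjusted p below 0.05 over 11002 genes were called. Fold changes are given with SE and a 95% interval. The design was tested on simulated data. Replicates of a group differed beyond sampling noise, with chi-square over its degrees of freedom of 10.6 to 55.6 for a pair. Intervals of counting error are not given, because replicate spread exceeds it.

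The members and lists were chosen with earlier results of these data known. The named genes were the 10 members, Serpina6, 4 clock genes, up to 4 called genes per list and comparison with the smallest adjusted p, and the 5 genes most and least like each member. Replicate numbers follow the order of the samples and link no animals. Alternatives were other size factors, no filter on low counts, DESeq2 1.42.0, limma 3.58.1 on the deposited log2 values, only the libraries compared, the number in the 30-day titles as a covariate, and leaving out each library. Relations and spread without the library with photoreceptor RNA were added after seeing the data. Correlations used 1e+05 permutations. Reads, genome coordinates in Rnor_5.0 and transcript lengths were not analysed here. Reads shared within gene families (Cyp3a, Akr1c, Sult2a, Ugt2b) depend on the authors' counting.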

Additional observations from a re-analysis of the deposited data

Results flagged for a closer look

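In 3 of 80 groups of 4 livers, 1 liver lay far from the others by Dixon's criterion, where chance gives about 1 in 20 groups. In 30-day WT females, replicate 4 had 147 CPM of Cyp7a1, against 29 to 45.2 CPM in the other livers. The same liver had 212 CPM of Cyp8b1, against 74.2 to 91.2 CPM in the others. In its group that liver alone carries the number 2 in its title, which all 4 KO females of 30 days carry. The part of that number in these values was not tested. In 60-day WT females, replicate 4 had 954 CPM of Slc27a5, against 701 to 726 CPM in the others.

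Of 60 interaction tests on the 10 genes, 3 passed. The sex difference of Baat (males over females) was larger at 60 than at 30 days by 0.94 on the log2 scale in KO livers and by 0.54 in WT livers. That of Cyp7b1 was larger at 60 than at 30 days by 1.37 in WT livers.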

How the results depend on the processing

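No paired analysis was possible because no label ties a liver of one group to a liver of another. Of the fold changes of single genes under the alternatives, 2836 kept their side of the threshold, 28 became calls, 6 lost a call, and 0 of the calls changed sign. The count of called genes for 60 over 30 days in KO females was 2 by edgeR and 5 by limma on the deposited log2 values, which carry no scaling between libraries. The sex-by-age count in WT was 2 by edgeR and 4 by DESeq2, where Hsd3b7 (adjusted p = 0.014) and Slc27a5 (adjusted p = 0.0366) were added. Leaving out each library gave 0 to 1 calls for males over females in 30-day WT, 3 to 5 in 60-day KO and 6 to 7 in 60-day WT. It gave 5 to 6 calls for 60 over 30 days in WT females, 3 to 4 in WT males, 1 to 2 for sex by age in KO and 2 to 4 in WT. The other counts did not move when a library was left out: 0 for KO over WT in each sex and age, 0 for sex by genotype and age by genotype, 1 for males over females in 30-day KO, 2 and 3 for age in KO females and KO males. What depth adds to the intervals of Cyp7a1, Cyp8b1 and Nr0b2 was not tested. The number in the 30-day titles nearly follows genotype in females and sex in KO livers, so there the fit with it says little of its part. Relations between genes were also computed without the library with photoreceptor RNA, a choice made after seeing the data, and then none of the 85 passed.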
